A study of Mus musculus with 6 samples.

Results

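The genes examined, 9 in all, are linked to the resting state of lymphocytes: the transcription factor genes Foxo1 and Foxo3, the FOXO target genes Txnip, Sesn1, Klf2, Btg1 and Ccng2, and the growth-restraining genes Btg2 and Ypel3. They were taken by symbol from the deposited table wherever the platform annotation gave exactly that 1 symbol. Each of the 9 genes had 1 feature, so 9 of 21542 features and 9 of 19818 genes are described. The cells were mature B cells of mouse spleen, activated in culture and then infected with a retrovirus that carries green fluorescent protein. Sorted fluorescent cells held the empty vector (EV), IKK K171E (IKK_K171E) or MYD88 L265P (MYD88_L265P), with 2 Affymetrix mouse ST 1.0 arrays in each of the 3 groups. Infection left each construct beside the cells' own genes, and the labels give neither the IKK subunit nor the strain, age or number of mice. All 6 cultures, controls included, had 36 hours with mitogen after infection and 24 hours without it, and the growth notes name anti-CD40 as what was left out. Arrays of a group are described as biological replicates, but no label says that they came from separate animals, so p-values measure only the spread between these arrays.

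FOXO proteins are transcription factors that stay in the nucleus while signalling through PI3 kinase and AKT is low. When a lymphocyte is activated, AKT phosphorylates them, they leave the nucleus, and the genes they maintain are no longer driven. Those genes restrain glucose uptake, growth signalling and the cell cycle, and some direct the homing of resting cells. Control of FOXO proteins is largely by phosphorylation and location, which arrays of RNA do not measure.

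Promoter sequence was available for all 9 genes in RefSeq (build GRCm38.p6), as 10 windows from 250 bases before to 50 bases after an annotated transcript start, with 2 windows for Sesn1. The motifs searched, 3 in all, were read on both strands. They were the FOXO core TGTTTAC, the insulin response element core TGTTTTG, which FOXO factors also bind, and the E-box CACGTG of MLX with MondoA and of MYC with MAX. The FOXO core was found in 4 of the 9 genes (Txnip, Sesn1, Btg1 and Ypel3) and in 3.65% of all 32851 windows, or 4.05% of genes. For Sesn1 the match lay in 1 of its 2 windows. The insulin response element core was found in Ccng2 alone among the 9, and in 6.28% of all windows. The exact E-box was found in 0 of the 10 windows and in 7.15% of all windows. Sequences that differ from CACGTG by any base were not searched, so this count does not show that a MondoA site is lacking. The windows of Foxo1, Foxo3, Klf2 and Btg2 held none of the 3 motifs. The 5 genes with a match are printed because they are also the 5 whose signal fell in MYD88_L265P cells, as described below. The motifs were chosen with these results known, the overlap describes short windows only, and a match is not a binding site. Sequences run 5′ to 3′ on the gene's strand, which is the plus strand for all 5, and capitals mark the match. Whole upstream stretches are given for Txnip and Btg1, whose FOXO core matches lie before the start. Short stretches are given for the others, of which Ccng2 also has its match before the start.
Txnip, chr3:96557707-96557956: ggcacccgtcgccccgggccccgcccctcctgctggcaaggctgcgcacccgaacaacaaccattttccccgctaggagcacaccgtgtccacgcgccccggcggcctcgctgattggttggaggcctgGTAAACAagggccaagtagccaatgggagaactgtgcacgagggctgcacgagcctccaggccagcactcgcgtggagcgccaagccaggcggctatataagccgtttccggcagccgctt
Btg1, chr10:96616751-96617000: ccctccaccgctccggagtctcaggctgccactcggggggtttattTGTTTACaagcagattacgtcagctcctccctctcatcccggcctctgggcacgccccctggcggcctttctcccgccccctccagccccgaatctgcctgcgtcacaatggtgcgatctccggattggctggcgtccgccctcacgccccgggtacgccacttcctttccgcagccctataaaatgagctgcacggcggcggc
Sesn1, chr10:41810585-41810613: gaaccttctacTGTTTACcagccttttgg
Ypel3, chr7:126776977-126777005: ctggtctcggtGTAAACAagtcgaggcgg
Ccng2, chr5:93267546-93267574: cgtcgcagactCAAAACAaaaacaagggg

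Counted from the start, with bases before it negative, the match in Btg1 begins at -204, that in Txnip at -121 and that in Ccng2 at -16. In Sesn1 and Ypel3 the match lies just after the start, beginning at base 23 and base 26 of the transcript. In Txnip, Ypel3 and Ccng2 the printed strand shows the reverse complement of the motif.

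**Figure D1:**
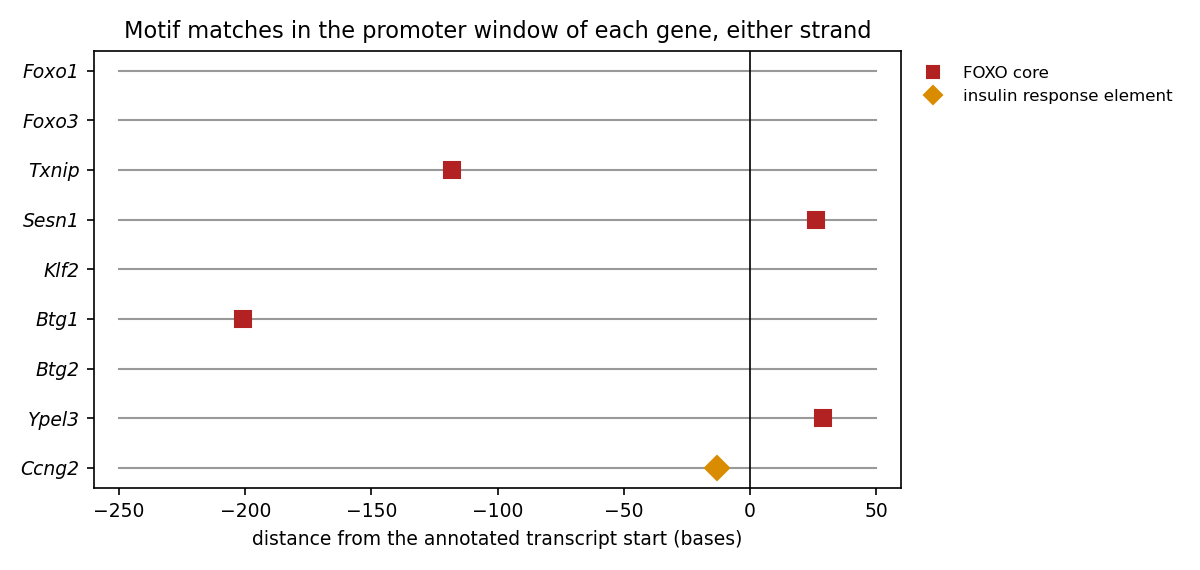
Position of each motif match (horizontal axis, bases from the annotated transcript start) in the promoter windows of the 9 genes, 1 line per gene, with the 2 windows of Sesn1 on the same line. Squares are the FOXO core and the diamond is the insulin response element core; Foxo1, Foxo3, Klf2 and Btg2 have no match.

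The first comparison asked which of these genes changed with MYD88 L265P, a form of the Toll-like receptor adaptor found in human B cell lymphomas. Txnip, Btg1, Sesn1, Ypel3 and Ccng2 fell relative to EV, by 0.63 to 1.38 on the log2 scale. None of the 9 genes rose, where 9.32% of all features were called higher (16.6% in either direction), and Foxo1, Foxo3, Btg2 and Klf2 did not pass the test. Thus 5 of the 9 genes were called lower at a limma adjusted p below 0.05, where 7.33% of all features were called lower (3.5% after shifting the arrays to a common median). The median log2 fold change was -0.63 for the 9 genes and -0.111 for all features, of which 66.4% lay below 0. For 8 of the 9 genes both MYD88_L265P arrays lay under both EV arrays, which held for 47.9% of all features. In sorted populations such as these, fewer cells of one kind and less RNA per cell cannot be told apart. The Txnip call held without either MYD88_L265P array. The calls of Btg1, Sesn1, Ypel3 and Ccng2 ended without replicate 1 (log2 fold changes -0.74, -0.81, -0.82 and -0.60) and without replicate 2 (-0.93, -0.85, -0.83 and -0.66), settings in which calls over all features dropped from 3586 to 415 and 191.

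Txnip encodes a protein that binds thioredoxin and limits glucose uptake, and it had the largest change of the 9. Its log2 signal was 11.44 and 11.48 in EV, 10.5 and 10.45 in IKK_K171E, and 10.12 and 10.05 in MYD88_L265P. The 3 groups did not overlap, and replicate arrays lay close together, with SDs of 0.025, 0.038 and 0.049 (n = 2 each). In MYD88_L265P the signal was 2.6-fold lower than in EV (95% confidence interval 2.26 to 2.98), a log2 fold change of -1.38 (SE 0.0853, limma adjusted p = 0.00161). It ranked 23 from the lowest of 21542 features. The call held in all 17 alternative settings, with adjusted p from 6.24e-04 to 0.0257.

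Btg1 encodes an antiproliferative protein that recruits the CCR4-NOT deadenylase to messenger RNA. Its log2 signal was 11.69 and 11.77 in EV, 11.13 and 11.33 in IKK_K171E, and 10.8 and 10.98 in MYD88_L265P. The groups stood in that order without overlap. It was 1.78-fold lower in MYD88_L265P than in EV (95% confidence interval 1.49 to 2.13, log2 fold change -0.83, SE 0.11, limma adjusted p = 0.00729).

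Sesn1 encodes sestrin 1, a stress-inducible inhibitor of mTORC1. Its EV arrays differed more than those of any other of the 9 genes, with log2 signals of 10.63 and 11.21 (SD 0.41, n = 2). IKK_K171E stood at 10.57 and 10.75, overlapping EV, and MYD88_L265P at 10.07 and 10.11, below every other array. The log2 fold change in MYD88_L265P over EV was -0.83 (SE 0.18, limma adjusted p = 0.0252). Without EV replicate 2, the array with the highest Sesn1 signal, it was -0.55 and missed the threshold (limma adjusted p = 0.053).

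Ypel3, a small zinc-binding protein gene whose product slows growth, read 10.67 and 10.46 in EV, 9.63 and 9.9 in IKK_K171E, and 9.74 and 9.75 in MYD88_L265P. Both constructs brought it to the same range, below both EV arrays. It fell by 0.82 on the log2 scale in MYD88_L265P over EV (SE 0.121, limma adjusted p = 0.00933). Ccng2 encodes cyclin G2, an unconventional cyclin that inhibits cell cycle progression. Its log2 signal was 9.68 and 9.87 in EV, 9.18 and 9.31 in IKK_K171E, and 9.11 and 9.18 in MYD88_L265P. It fell by 0.63 in MYD88_L265P over EV (SE 0.104, limma adjusted p = 0.0122), to 64.5% of the EV signal.

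The FOXO genes themselves did not pass in MYD88_L265P over EV. Foxo1, which B cells need for development and homing, read 10.2 and 10.21 in EV, 9.65 and 9.89 in IKK_K171E, and 9.94 and 10.08 in MYD88_L265P. The change in MYD88_L265P over EV was -0.2 on the log2 scale (95% confidence interval -0.45 to 0.06, limma adjusted p = 0.213). Both constructs had Foxo1 arrays below the EV arrays, and the lowest signals were in IKK_K171E. Foxo3, its relative, read 9.54 and 9.59 in EV, 9.35 and 9.41 in IKK_K171E, and 9.24 and 9.39 in MYD88_L265P. Its difference from EV in MYD88_L265P was -0.25 (95% confidence interval -0.47 to -0.03, limma adjusted p = 0.0968), and it passed under quantile normalization (adjusted p = 0.046).

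Klf2 and Btg2 did not pass in any comparison. Klf2, a transcription factor that keeps lymphocytes resting and controls their trafficking, read 9.45 and 9.33 in EV, 9.1 and 9.18 in IKK_K171E, and 9.42 and 9.27 in MYD88_L265P. Its EV and MYD88_L265P arrays overlapped, with a log2 fold change of -0.05 (95% confidence interval -0.28 to 0.19, limma adjusted p = 0.742) that turned to 0.03782 with a common median. Btg2, the close relative of Btg1, read 10.13 and 10.09 in EV, 9.66 and 10.04 in IKK_K171E, and 9.99 and 9.76 in MYD88_L265P. Its IKK_K171E arrays had an SD of 0.27 (n = 2), and the difference from EV was -0.24 in MYD88_L265P (95% confidence interval -0.57 to 0.1).

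**Figure D2:**
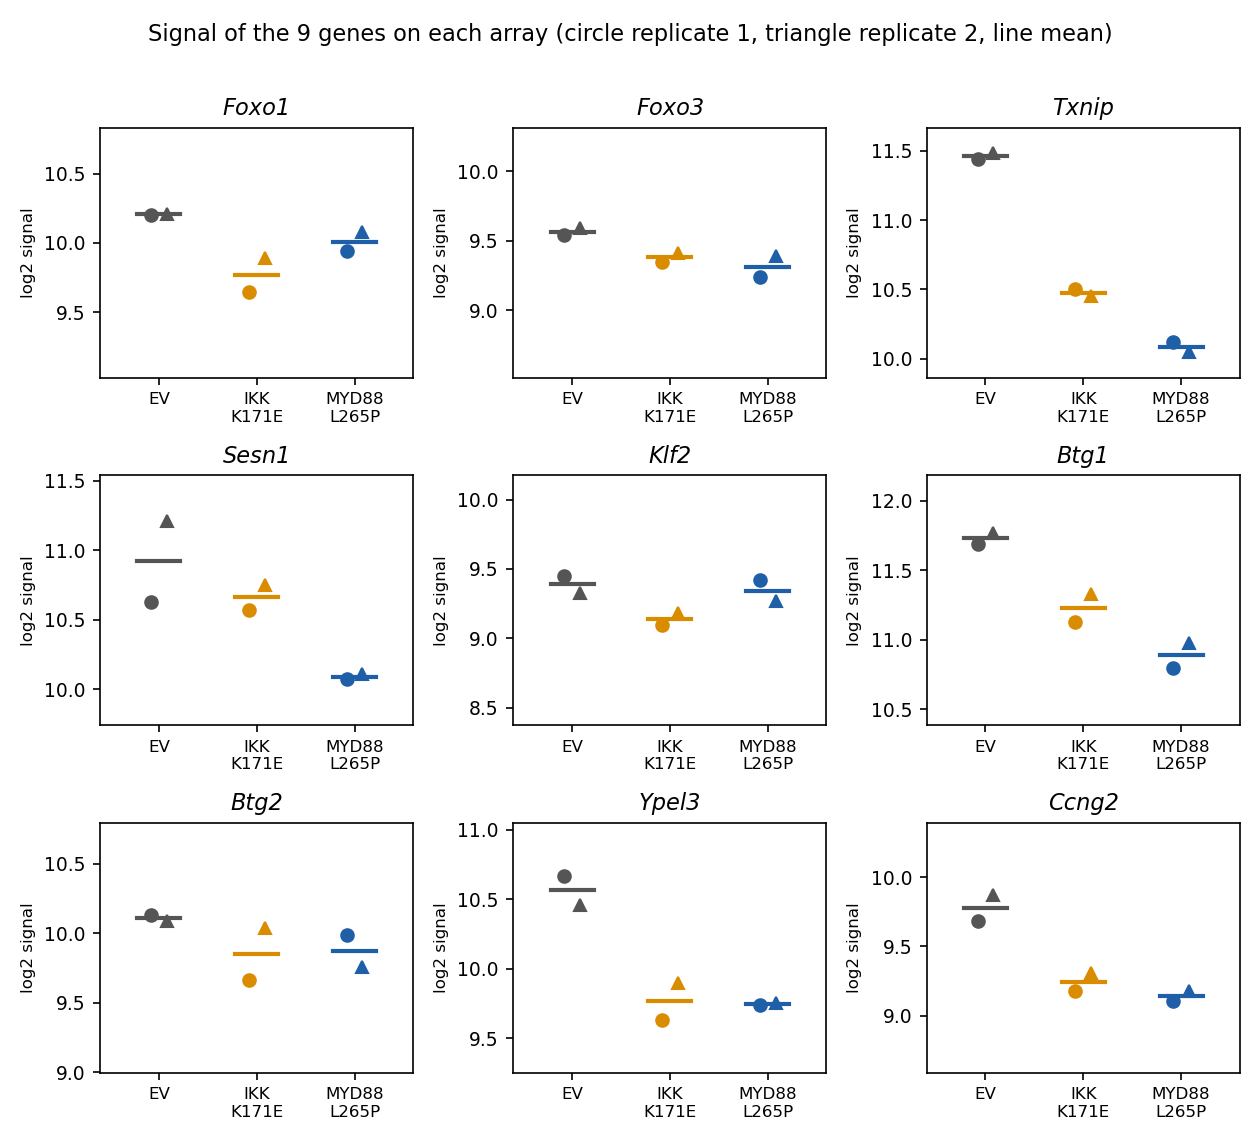
Log2 signal (vertical axis, the same length of scale in every panel) of each of the 9 genes on the 6 arrays by group, with circles for replicate 1, triangles for replicate 2 and lines for the group mean. Txnip drops from 11.46 in EV to 10.47 in IKK_K171E and 10.09 in MYD88_L265P, while the Klf2 arrays of EV and MYD88_L265P overlap.

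The second comparison asked what the IKK K171E construct changed against the same EV arrays. Txnip and Ypel3 fell, and the other 7 genes did not pass. The 2 calls compare with 0.413% of all features called lower, 0.956% called higher and 1.37% called in either direction. Txnip was 1.99-fold lower in IKK_K171E than in EV (95% confidence interval 1.73 to 2.28), a log2 fold change of -0.99 (SE 0.0853, limma adjusted p = 0.0084). It ranked 12 from the lowest of 21542 features. The Txnip call ended without IKK_K171E replicate 1 (log2 fold change -1.02, adjusted p = 0.0945), a setting in which 0 of all features were called by limma. Ypel3 had a log2 fold change of -0.8 (SE 0.121, limma adjusted p = 0.0377), and this call held in 8 of the 17 alternative settings.

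The other genes in IKK_K171E had log2 fold changes over EV from -0.53 (Ccng2) to -0.18 (Foxo3). Ccng2 at -0.53 (limma adjusted p = 0.0612), Btg1 at -0.5 (adjusted p = 0.082) and Foxo1 at -0.44 (adjusted p = 0.105) stood nearest to the threshold. Sesn1 was at -0.26 (95% confidence interval -0.68 to 0.16), Btg2 at -0.26 and Klf2 at -0.25. All 9 values were below 0, and in all except Sesn1 both IKK_K171E arrays lay under both EV arrays, as for 28.4% of all features. The median over the 9 genes was -0.44, against -0.0365 over all features. Both comparisons with EV use the same 2 EV arrays, so their values are not independent of each other.

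The third comparison set the constructs against each other, and 0 of the 9 genes passed, with 0.877% of all features called lower and 0.873% called higher in MYD88_L265P (1.75% in all). Higher calls were 49.9% of all calls, and 66.2% with a common median, as they were 56% and 77.4% in MYD88_L265P over EV. Of the 9 genes 3 had an unadjusted p below 0.05, namely Txnip, Sesn1 and Btg1, all lower in MYD88_L265P, as had 19.6% of all features in either direction and 11.2% on the lower side. Sesn1 had the largest difference, at -0.57 for MYD88_L265P minus IKK_K171E (95% confidence interval -1.0 to -0.15, limma adjusted p = 0.166). It passed in 4 of the 17 alternative settings, among them the fits without either EV array (adjusted p = 0.0407 in both), whose spread then no longer enters. Txnip differed by -0.39 (95% confidence interval -0.59 to -0.19, adjusted p = 0.0819) and passed under quantile normalization (adjusted p = 0.0465). Btg1 differed by -0.34 (95% confidence interval -0.59 to -0.08, adjusted p = 0.18).

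Foxo1 and Klf2 ran the other way, higher in MYD88_L265P than in IKK_K171E by 0.24 (95% confidence interval -0.02 to 0.5, limma adjusted p = 0.277) and 0.21 (95% confidence interval -0.03 to 0.44, adjusted p = 0.295). Ypel3 was at -0.02 (95% confidence interval -0.31 to 0.27) and Btg2 at 0.02 (95% confidence interval -0.32 to 0.36). Ccng2 was at -0.1 and Foxo3 at -0.07, and their intervals also include 0. The order of group means, EV above IKK_K171E above MYD88_L265P, held for 6 of the 9 genes (Txnip, Sesn1, Btg1, Ypel3, Foxo3 and Ccng2) and for 39.7% of all features. For Ypel3, Foxo3 and Ccng2 the step between the constructs was smaller than its standard error.

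**Figure D3:**
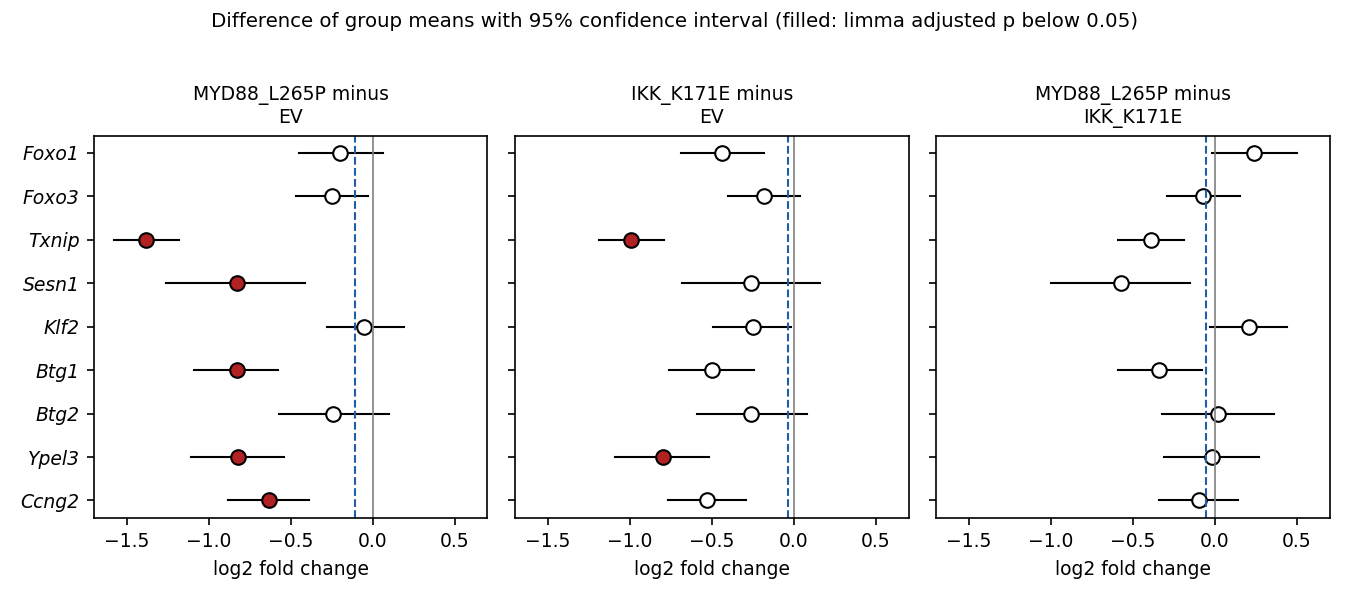
Log2 fold change (horizontal axis) of each of the 9 genes in the 3 comparisons, with bars for the 95% confidence interval from limma; filled points passed at an adjusted p below 0.05 and the dashed line is the median of all features. Filled points number 5 in MYD88_L265P minus EV, Txnip and Ypel3 in IKK_K171E minus EV, and none in MYD88_L265P minus IKK_K171E.

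Of 28 other FOXO target genes measured, 5 fell and 2 rose in MYD88_L265P over EV. Those that fell the most were Klhl24 (-0.77), the chemokine receptor gene Ccr7 (-0.75), which guides resting lymphocytes into lymph nodes, and Fbxo32 (-0.74), an atrophy-linked ubiquitin ligase gene. Cxcr4, another homing receptor gene, rose by 0.86 and the mitochondrial superoxide dismutase gene Sod2 by 0.76. Sesn3, the sestrin that FOXO factors are best known to induce, had -0.48 (limma adjusted p = 0.0376). In IKK_K171E over EV, 3 of the 28 fell and 0 rose: Bcl2l11 (-0.82), which encodes the death protein BIM, Klhl24 (-0.75) and Ccr7 (-0.63). The medians of the list were -0.18 and -0.25 in MYD88_L265P and IKK_K171E over EV. For MYD88_L265P minus IKK_K171E the list median was 0.19, and 0 of the 28 passed, where 1.75% of all features were called. Over all features, 7.33% were called lower and 9.32% higher in MYD88_L265P, and 0.413% and 0.956% in IKK_K171E.

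Of 30 other quiescence genes, 9 fell and 3 rose in MYD88_L265P over EV, and 5 fell and 3 rose with a common median. The shares of all features called were 7.33% lower and 9.32% higher, and 3.5% lower with a common median. Satb1, a chromatin organiser of lymphocytes, fell by 1.28, Zfp36l1, an RNA-binding protein that promotes decay of cell cycle transcripts, by 0.88, and Ypel5, a relative of Ypel3, by 0.79. Lin9 (0.95), Lin54 (0.65) and E2f4 (0.56) rose, and they encode subunits of the DREAM complex, which represses cell cycle genes in resting cells, although LIN9 and LIN54 also serve in the activating complex with B-MYB. In IKK_K171E over EV, 4 of the 30 fell and 0 rose, where 0.413% of all features were called lower and 0.956% higher. Those that fell included Satb1 (-1.24), Bach2 (-0.9), a repressor that holds back plasma cell differentiation, and Cdkn2d (-0.6), which encodes the CDK inhibitor p19. Zfp36l1 was the 1 gene of this list that differed between the constructs, where 0.877% of all features were called lower and 0.873% higher. Its difference, MYD88_L265P minus IKK_K171E, was -0.68 (SE 0.115, limma adjusted p = 0.0392), and that call ended with a common median.

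Upstream genes split in both directions. Of 31 PI3 kinase, AKT and FOXO regulator genes, 5 fell and 5 rose in MYD88_L265P over EV. The median was -0.0034, and over all features 7.33% were called lower and 9.32% higher. Phlpp1, the gene of a phosphatase that inactivates AKT, fell by 1.18, Pik3ip1, a PI3 kinase inhibitor gene, by 0.7, and Inpp5d, which encodes the lipid phosphatase SHIP1, by 0.69. Sgk3, a kinase gene related to AKT, rose by 1.11, Rheb, the activator of mTORC1, by 0.74, and the nuclear export receptor gene Xpo1 by 0.61. In IKK_K171E over EV, Pik3ip1 was the 1 gene of 31 that passed (-0.52, SE 0.0886, limma adjusted p = 0.0458). Sgk3 and the PI3 kinase subunit gene Pik3cg were higher in MYD88_L265P than in IKK_K171E, by 1.02 and 0.92. Of all features, 1.37% were called in IKK_K171E over EV and 1.75% between the constructs.

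Among 22 partners and relatives of the 9 genes, 4 fell and 2 rose in MYD88_L265P over EV. With a common median 1 fell and 4 rose. These counts compare with 7.33% of all features called lower and 9.32% called higher, and 3.5% lower with a common median. Mlxip, the gene of MondoA, the sugar-sensing factor that drives Txnip, fell by 0.66 (limma adjusted p = 0.0448), and its EV arrays read 11.17 and 10.63. The glucose transporter gene Slc2a3 fell by 0.5 and the arrestin-domain gene Arrdc1 by 0.46. At most 1 of the 4 lower calls held with a common median. Txnrd1, a thioredoxin reductase gene, rose by 1.17 and Txn1, the gene of the thioredoxin that TXNIP binds, by 0.48, while Txn2, the mitochondrial thioredoxin gene, was at 0.25 (adjusted p = 0.107). In IKK_K171E over EV, 0 of the 22 passed, and 0 passed between the constructs, where 1.37% and 1.75% of all features were called.

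**Figure D4:**
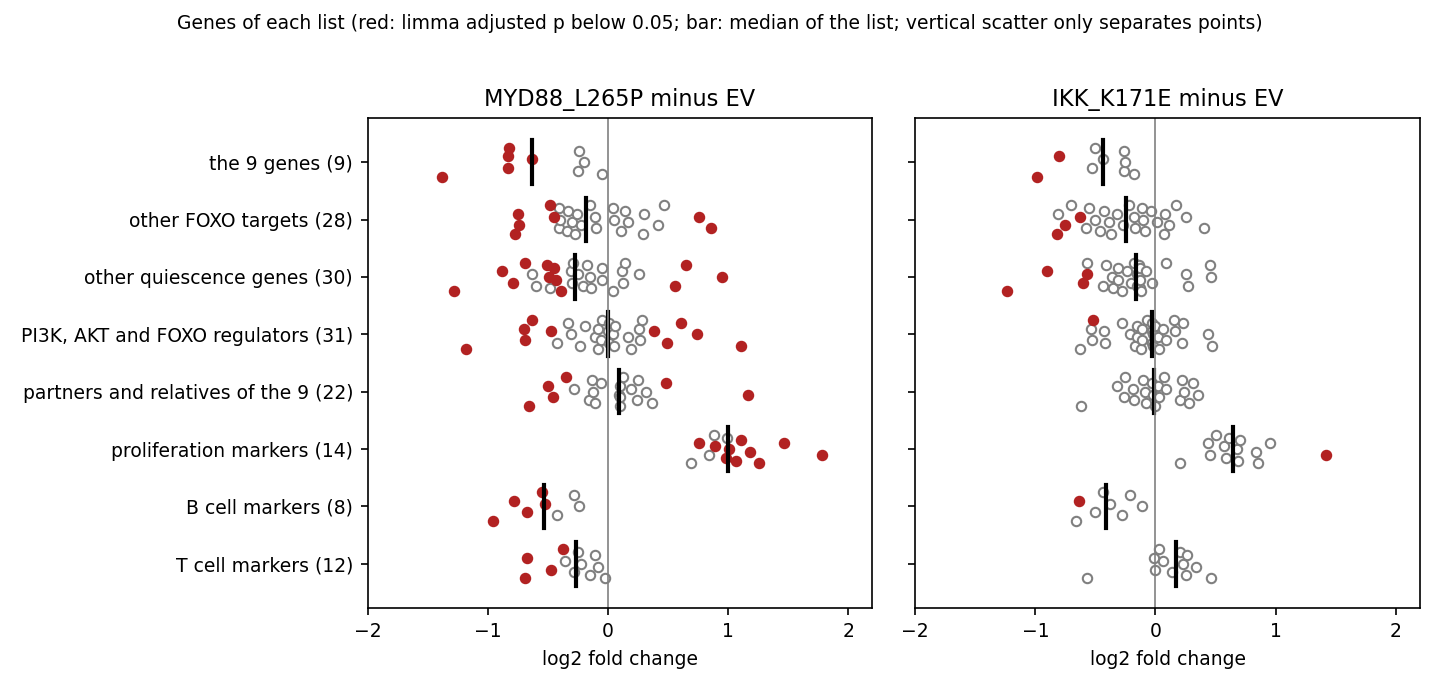
Log2 fold change over EV (horizontal axis) of each gene of 8 lists, with the number measured in brackets, in MYD88_L265P (left) and IKK_K171E (right); red points passed limma at an adjusted p below 0.05 and bars are list medians. The 9 genes have medians of -0.63 and -0.44, the B cell markers -0.54 and -0.41, and the proliferation markers 1.0 and 0.65.

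Markers of cell division and of other cells moved alongside these differences, and their part in them was not tested. Over 14 proliferation markers the mean log2 signal was 10.49 and 9.71 in EV, 10.94 and 10.61 in IKK_K171E, and 11.16 and 11.17 in MYD88_L265P. EV replicate 2 was lowest in these markers. Of the 2 EV arrays it had the higher Sesn1 (11.21 against 10.63), Ccng2 (9.87 against 9.68) and Btg1 (11.77 against 11.69). It was also slightly higher in Foxo3 (9.59 against 9.54), Txnip (11.48 against 11.44) and Foxo1 (10.21 against 10.2). The same array had the lower Ypel3 (10.46 against 10.67), Klf2 (9.33 against 9.45) and Btg2 (10.09 against 10.13). Of the 14, 10 rose in MYD88_L265P over EV, led by Ccne2 (1.78), Tyms (1.47) and Rrm2 (1.26), and Ccne2 alone rose in IKK_K171E (1.42). Of 6 plasma cell markers, Prdm1 (2.47), Jchain (2.22) and Xbp1 (1.26) rose in MYD88_L265P over EV, and 0 passed in IKK_K171E. The labelled cell type was checked on 8 B cell markers, whose group means ran from 9.83 (Blk in MYD88_L265P) to 13.01 (Cd74 in EV). Of the 8, 5 fell in MYD88_L265P over EV, led by Blk (-0.96), Cd22 (-0.78) and Cd79b (-0.67), and Cd22 fell in IKK_K171E (-0.64). The B cell marker medians over EV were -0.54 in MYD88_L265P and -0.41 in IKK_K171E, close to those of the 9 genes. Of all features, 7.33% were called lower and 9.32% higher in MYD88_L265P over EV, and 0.413% and 0.956% in IKK_K171E.

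T cells were represented by 12 markers with a mean log2 signal of 8.32 and 8.38 in EV, 8.52 and 8.41 in IKK_K171E, and 8.12 and 7.97 in MYD88_L265P. Their summed signal on the linear scale ran from 7080 to 7500 in EV, from 6070 to 6590 in IKK_K171E and from 4990 to 5320 in MYD88_L265P. Cd2 gave 40.6% to 59.2% of each sum, and over the other 11 the sum ran from 2950 to 3060 in EV, from 3200 to 3610 in IKK_K171E and from 2350 to 2660 in MYD88_L265P. Of the 12, 10 had values above 0 in IKK_K171E over EV, and Cd2 was at -0.57 (limma adjusted p = 0.119). Cd2, which mouse B cells also express, had the highest mean, at 12.06 in EV, and Cd3d the lowest, at 7.08. Of the 12, 4 fell in MYD88_L265P over EV (2 with a common median), namely Cd2 (-0.69), Cd3g (-0.67), Cd3e (-0.47) and Cd4 (-0.37), and 0 of the 12 passed in IKK_K171E over EV. Monocyte and macrophage markers (9 genes) were highest in IKK_K171E, with means of 9.72 and 9.5, against 9.13 and 9.22 in EV and 9.05 and 8.82 in MYD88_L265P. In IKK_K171E over EV, Csf1r rose by 1.22 and Adgre1 fell by 1.17, and Adgre1 fell by 1.78 in MYD88_L265P. Lyz2 was the brightest of them in each group and Cd14 or Ccr2 the dimmest. Of 7 dendritic cell markers, Flt3 (0.75) and Itgax (0.68) rose in IKK_K171E over EV, and in MYD88_L265P Ccr9 (1.49) rose and Flt3 (-0.88) and Zbtb46 (-0.56) fell. Klrd1 (-1.16) and Nkg7 (-0.39) of 8 NK cell markers fell in MYD88_L265P, as did Ly6g (-0.49) of 7 neutrophil markers. In EV and MYD88_L265P the means were 7.76 and 6.6 for Klrd1, 7.89 and 7.5 for Nkg7, and 6.61 and 6.11 for Ly6g. All were dim, below the array medians of 8.051 to 8.15. Of all features, 7.33% were called lower and 9.32% higher in MYD88_L265P over EV, and 0.413% and 0.956% in IKK_K171E. Neither of the 2 erythroid markers passed, and arrays have no zero level, so no marker can be called absent.

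**Figure D5:**
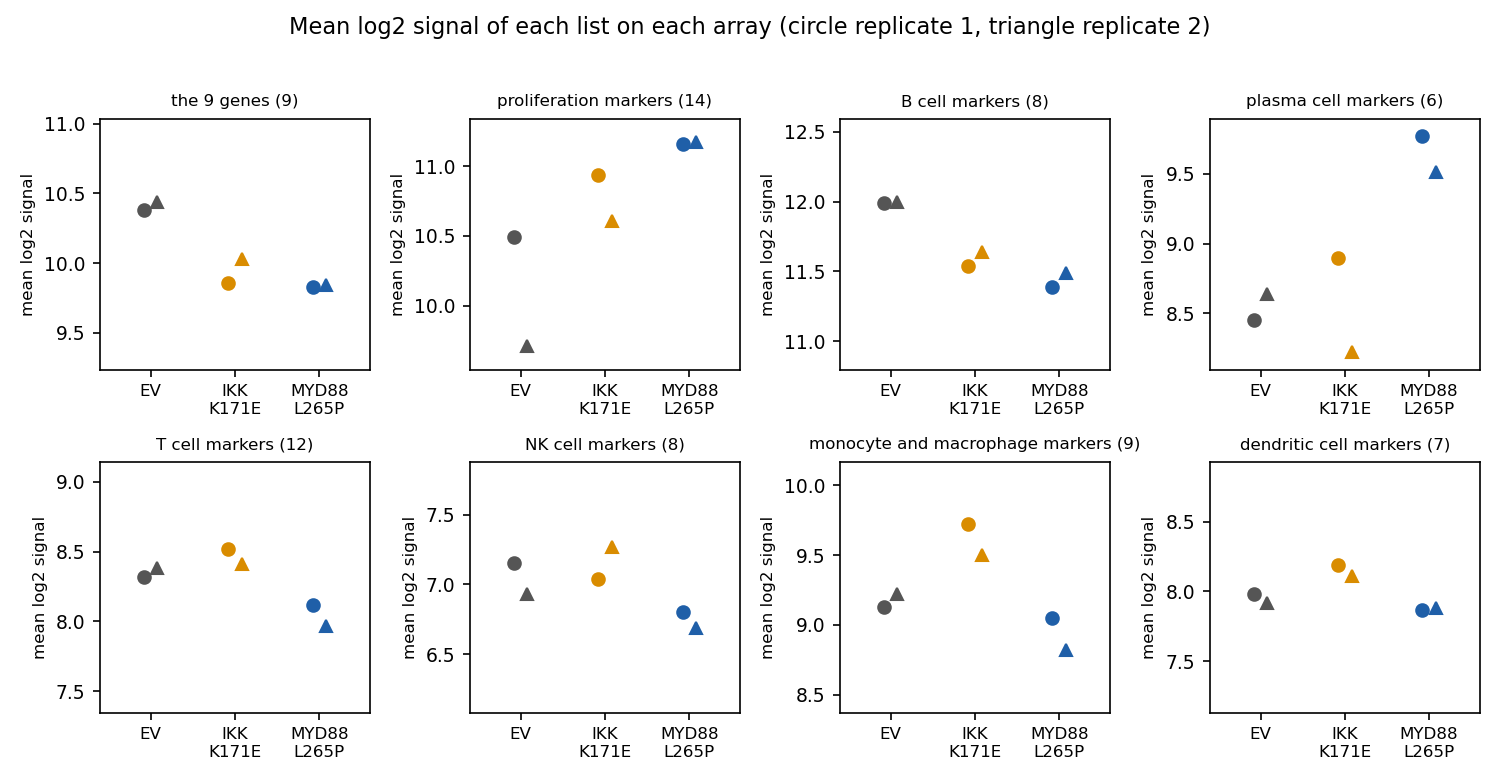
Mean log2 signal (vertical axis) over the genes of 8 lists on each of the 6 arrays, with circles for replicate 1 and triangles for replicate 2. The mean of the 9 genes is 10.38 and 10.44 in EV and 9.83 and 9.84 in MYD88_L265P, and the T cell marker mean is lower on both MYD88_L265P arrays than on the other 4.

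For the 3 genes whose arrays spanned at least 1 on the log2 scale, the 3 genes with the most similar profile over the 6 arrays were sought among all 19818 genes, by the root mean square difference after centring each profile on its mean. Nearest to Txnip were Pold4 (0.0687), a subunit gene of DNA polymerase delta, the lymphocyte adaptor gene Lax1 (0.0957) and Sidt1 (0.139). Their log2 fold changes over EV were -1.4, -1.29 and -1.31 in MYD88_L265P and -1.03, -0.93 and -0.8 in IKK_K171E. Nearest to Sesn1 were Tspan32 (0.0449), Grk3 (0.0574) and Arhgap24 (0.0607), which share its higher signal in EV replicate 2. Nearest to Ypel3 were Abi3 (0.0724), the inhibitory receptor gene Cd22 (0.073) and Smim14 (0.0759), each lower with both constructs than in EV and close to equal between them.

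Myd88 and Ikbkb were checked against the labels, where Ikbkb is an assumed choice because the labels do not give the IKK subunit. Myd88 read 12.25 and 12.31 in MYD88_L265P and between 9.14 and 9.43 on the other 4 arrays. Ikbkb, the gene of IKK beta, read 11.35 and 10.68 in IKK_K171E and between 9.68 and 10.22 elsewhere, and its difference from EV missed the threshold (0.91, limma adjusted p = 0.0848). The correlation between replicate arrays over features ran from 0.9887 (EV) to 0.9951 (MYD88_L265P). Precision is limited by having 2 arrays a group.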

How the data were processed

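The authors deposited log2 expression values for 24743 features on 6 arrays. Per the submitters' processing notes, oligo and limma were used. How background was corrected, how arrays were normalized and summarized, and the genome build are not given in the sources used here. The log2 scale was taken from the range of values, 2.555 to 14.52. Values were used as deposited.

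The 21542 features with exactly 1 gene symbol in the platform annotation were tested. Group means were fitted to all 6 arrays with limma 3.58.1 in R 4.3.3, using moderated variances (residual degrees of freedom 3, prior 4.174). Each comparison used two-sided tests, Benjamini-Hochberg adjustment across every tested feature and a threshold of 0.05. For a gene with several features the brightest was used. The procedure was tested on simulated data.

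The 9 genes, the gene lists and the rule for named genes were chosen with earlier results of these data known. The rule named the 9 genes, Myd88 and Ikbkb, the 3 largest called changes per list and direction, the dimmest and brightest markers, and the 3 nearest profiles. Sesn3 and Txn2 were named after their values were seen. Listed genes without such a feature were not analysed here. Alternatives covered replicate numbers, scaling, variance model, array weights, filters and each array left out in turn.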

Additional observations from a re-analysis of the deposited data

How the results depend on the processing

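Each of the 9 genes was recomputed under 17 alternatives per comparison. In MYD88_L265P over EV the count called lower was 5, and 6 with quantile normalization. It ran from 1 to 5 with 1 array left out. In IKK_K171E over EV the count of 2 became 1 with array weights, with only the 2 groups compared and with all deposited features, and it ran from 0 to 2 with 1 array left out. Between the constructs the count of 0 became 1 with quantile normalization (Txnip) and with only the 2 groups compared (Sesn1), and ran from 0 to 1 with 1 array left out. No gene was called higher in any of these settings. Except where fewer arrays or more features entered by construction, the cause was not tested.

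Values near 0 changed sign. With a common median Klf2 was 0.03782 in MYD88_L265P over EV, and between the constructs Ypel3 was 0.0519 and Foxo3 0.003076. With quantile normalization Btg2 was -0.08838 between the constructs. With 1 array left out, Klf2 ran from -0.12 to 0.029 in MYD88_L265P over EV and Sesn1 from -0.55 to 0.027 in IKK_K171E over EV. Between the constructs Btg2 ran from -0.17 to 0.21, Ypel3 from -0.15 to 0.11 and Foxo3 from -0.14 to 0.0056. None of these was called in either setting.

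Replicate numbers in the descriptions do not say what they share. Deviations of replicate 1 from the group means correlated over features at 0.211 between EV and IKK_K171E, 0.105 between EV and MYD88_L265P and 0.144 between the constructs. With these numbers as a replicate block, 5, 4 and 0 genes were called lower in the 3 comparisons, Btg1 and Ccng2 being added in IKK_K171E over EV. With the title numbers as the replicate block the counts were 5, 1 and 1, and Klf2 was 0.001147 in MYD88_L265P over EV.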

Other observations

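Relatives of the 9 genes did not all move with them. They were named here for their families after their values were seen. Among the YPEL genes, Ypel1 fell by 0.49 in MYD88_L265P over EV (limma adjusted p = 0.0193) and Ypel5 by 0.79, while Ypel2 was at 0.12 (adjusted p = 0.444) and Ypel4 at -0.31 (adjusted p = 0.0651). Of the sestrins, Sesn3 fell beside Sesn1, and Sesn2, the sestrin best known as a target of ATF4, was at 0.1 (adjusted p = 0.704). Foxo4 and Foxo6 were at -0.19 and 0.01, neither passing. Cyclin I, Ccni, fell by 0.35 (adjusted p = 0.0484, just under the threshold), and Ccng1, the cyclin G gene induced by p53, was at 0.09 (adjusted p = 0.455).

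Any part of MondoA in the Txnip change was not tested. Another gene that MondoA drives, the arrestin-domain gene Arrdc4, was dim, below the array medians of 8.051 to 8.15, and did not pass over EV. It read 7.35 and 7.02 in EV, 7.51 and 7.56 in IKK_K171E, and 7.27 and 6.88 in MYD88_L265P, with log2 fold changes over EV of 0.35 (limma adjusted p = 0.325) in IKK_K171E and -0.11 (adjusted p = 0.627) in MYD88_L265P. The homing receptor gene S1pr1 read 10.31 and 10.67 in EV, 9.78 and 9.59 in IKK_K171E, and 10.13 and 10.32 in MYD88_L265P. Its difference over EV was -0.81 in IKK_K171E, just short of the threshold (adjusted p = 0.0517), and -0.26 in MYD88_L265P (adjusted p = 0.208). The interleukin 7 receptor gene Il7r read 8.85 and 7.38 in EV, a wider gap than between any of its group means (8.11, 8.28 and 8.41).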
